A study of Mus with 50 samples.

Results

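The genes described here are the mouse major histocompatibility complex (MHC) genes and their partners in antigen presentation, measured in 50 livers. The members are all genes whose annotated symbol begins with H2-, together with B2m, Tap1, Tap2, Tapbp, Cd74, Ciita and Nlrc5. Of 51 such genes in the annotation, 40 sat on a probe set carrying 1 gene symbol and were measured singly, out of 22180 genes measured in that way. The other 11 (H2-D1, H2-Q2, H2-Q6, H2-Q7, H2-Q8, H2-Q9, H2-T3, H2-T9, H2-T18, H2-T22 and Cd74) sat only on probe sets that the annotation assigns to several genes. The study asked how liver gene expression relates to breast cancer susceptibility and ageing. All 50 mice were females of a C57xFVB backcross carrying the MMTV-Neu transgene, in which a mammary tumour virus promoter drives the Neu oncogene, chiefly in mammary epithelium, and all are labelled as having breast cancer. They had been picked for extreme grades of ageing, but the labels give no grade or age for a mouse, so they form 1 group and each mouse is named by its animal number. Each liver was hybridised to 1 Affymetrix whole-transcript array, and no untreated, transgene-free or parental-strain mice were among the samples. The tissue label is liver, although the protocol for RNA names purified cell populations as its source. The hepatocyte gene Alb (albumin) had a log2 signal of at least 13.20 in every array.

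MHC class I molecules are heavy chains that pair with beta-2-microglobulin and show peptides from inside the cell to CD8 T cells. The peptides are carried into the endoplasmic reticulum by the transporter Tap1/Tap2 and loaded with the help of tapasin. Class II molecules show peptides taken up from outside to CD4 T cells and are made mainly by B cells, dendritic cells and macrophages, which in the liver include Kupffer cells, whereas most cells including hepatocytes make class I. Interferon gamma raises both classes, through the transactivators Nlrc5 for class I and Ciita for class II. The MHC lies on chromosome 17, as do Tap1, Tap2 and Tapbp, and differs between inbred strains; B2m, Ciita and Nlrc5 lie on chromosomes 2, 16 and 8. C57 mice carry haplotype b and FVB mice haplotype q.

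The level of a gene is given as the log2 signal on its array probes, so levels of different genes are not amounts that can be set against each other, and the median level of all genes, 3.61, serves as the mark below which a signal is called low. Of the 40 members, 23 had a median at or above it. B2m, the light chain of class I molecules, varied least of these 23 (lowest 11.88, median 12.54, highest 12.81; SD 0.17, n = 50). H2-K1, the classical class I heavy chain measured singly, ran from 7.61 through a median of 9.02 to 10.09. The peptide transporter subunits Tap1 (5.60, 6.53 and 8.56) and Tap2 (3.88, 4.75 and 5.62) and tapasin, Tapbp (6.94, 7.60 and 8.63), were all above the mark in every mouse. The class I loading route was thus measured at a signal above the mark in each liver. Of the class II presenting chains, H2-Ab1 (lowest 6.62, median 8.27, highest 11.63), H2-Aa (5.14, 6.58 and 9.73) and H2-Eb1 (3.36, 4.92 and 8.06) had a median above the mark. H2-Ea and H2-Eb2 did not, with medians of 3.09 and 3.04; H2-Ea is listed as a transcribed pseudogene in the mouse reference. Of the class II loading genes, H2-DMa (3.82, 4.46 and 7.58) and H2-DMb2 (3.18, 3.66 and 4.90) were at or above the mark, and H2-DMb1, H2-Oa and H2-Ob were below it. The transactivators had medians above the mark, 4.58 for Nlrc5 (3.56 to 6.05) and 4.03 for Ciita (3.26 to 6.41).

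Among the other class I genes, 8 of 9 from the K, Q and T regions were at or above the mark, whereas 10 of the 12 M region genes were below it. H2-M3, which presents formylated bacterial peptides, was the clear exception in the M region with a median of 5.31 (4.58 to 7.18). The H2-M10 genes, known for the vomeronasal organ, had medians from 2.34 to 2.68, apart from H2-M10.1 at 3.84. H2-Ke6 bears an H2 symbol from its place in the complex but encodes a steroid dehydrogenase (Hsd17b8), and its median was 7.22. It meets the naming rule and is counted, though it presents nothing.

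**Figure D1:**
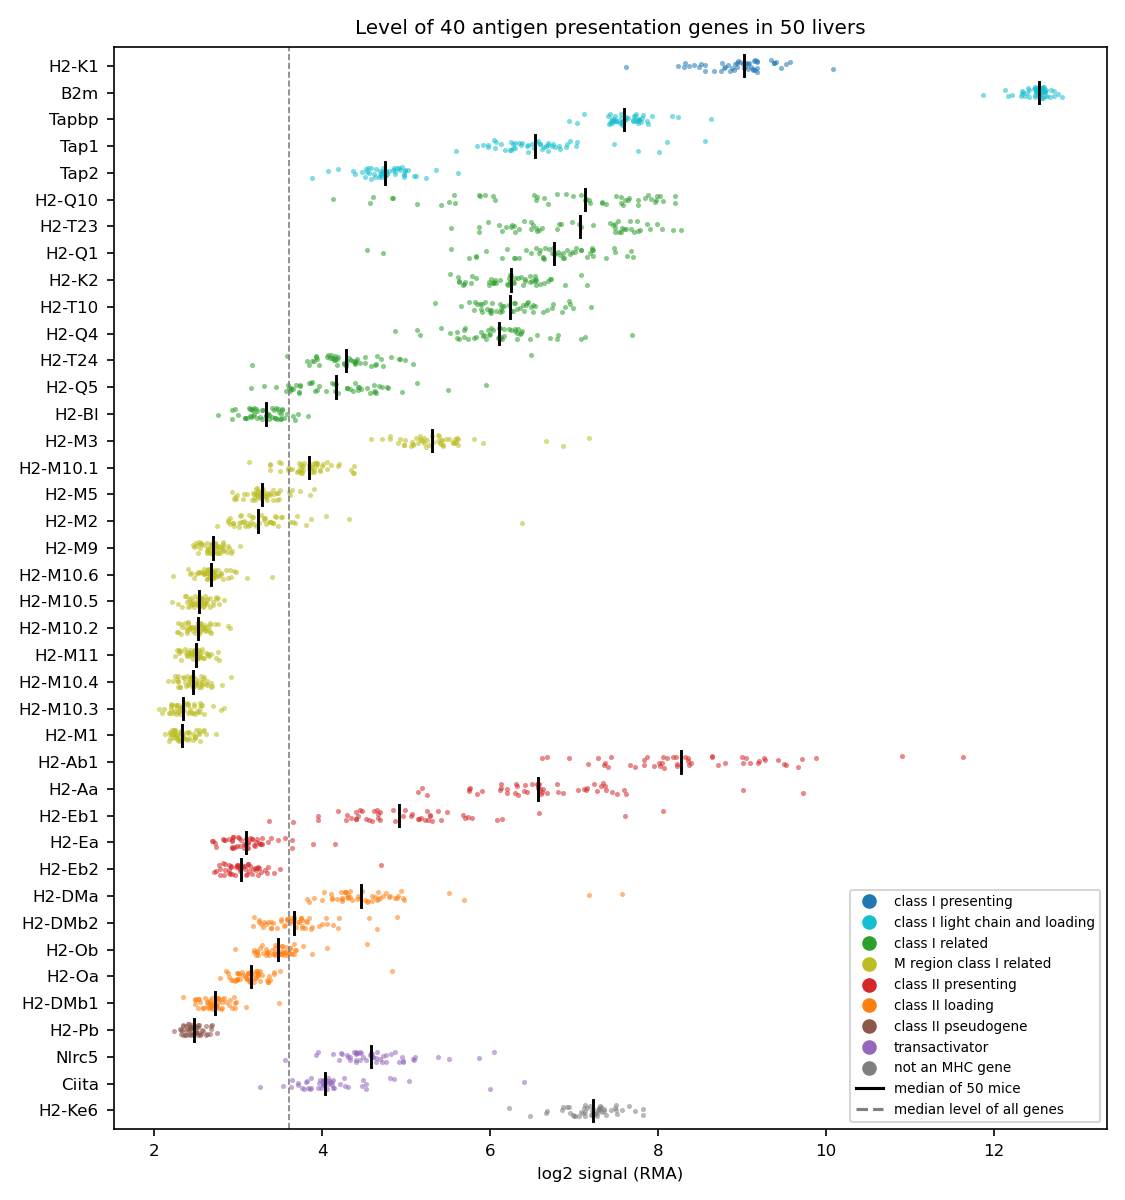
Log2 signal of the 40 singly measured members (rows, coloured by role) in 50 livers; each point is 1 mouse, the black line the median of 50 and the dashed line the median level of all genes, 3.61. The M region genes gather at the low end apart from H2-M3, B2m is tight near 12.54, and H2-Ab1 spans from 6.62 to 11.63.

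The spread over livers was described beside that of all genes at or above the mark, with no match on signal and no test. The 23 members at or above the mark had a median SD over mice of 0.48, against 0.28 for the 11090 genes at or above it, and 6 of the 23 exceeded the 95th percentile of those genes, 0.67. The 6 were H2-Q10 (SD 1.11 on the probe set used, 0.51 on its second), H2-Ab1 (0.99), H2-Eb1 (0.86), H2-Aa (0.83), H2-T23 (0.72) and H2-DMa (0.68). These are the class II chains and peptide exchanger together with a pair of nonclassical class I genes. Without animals 64, 84, 87 and 235, whose whole arrays correlated least with the others, the medians were 0.38 and 0.23.

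A few livers held the extremes. Animal 10 was highest for 12 of the 23 members and animal 235 for 4, whereas animal 84 was lowest for 6, animal 89 for 5 and animal 64 for 4. H2-Ab1 reached 11.63 in animal 235 and 10.91 in animal 10, against 6.68 to 9.72 in the 45 mice other than 10, 64, 84, 87 and 235. Ciita reached 6.41 in animal 10 and 6.0 in animal 235, against 3.54 to 4.86 in those 45. H2-DMa, which exchanges class II peptides, stood at 7.17 and 7.58 in the same pair of mice and at 5.69 or less in the 45. Some class II genes of low signal were high in animal 10 alone: H2-Oa, part of the H2-O regulator of peptide exchange, was 4.84 there against at most 3.50 elsewhere, and H2-Eb2 was 4.70 against at most 3.50. H2-M2, an M region gene, was 6.38 in animal 10 and at most 4.32 in the others.

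Markers of other cell types stood out in the same mice. Each cell type was summarised by a score, the mean of its marker genes after each was standardised over mice. In animal 10 the B cell score was 3.01 and the dendritic cell score 1.78, the highest of the 50 in both. In animal 235 the Kupffer cell and macrophage score was 3.97, against 1.25 in animal 10, 0.97 in animal 87 and at most 0.95 in the 45 mice. All 12 markers of this score were measured with medians above the mark. In animal 87 the T and NK cell score was 4.86, against 2.17 in animal 10, 1.08 in animal 235 and at most 0.52 in the 45 mice. In animal 64 the hepatocyte score was -3.85, against -2.10 in animal 235, -0.71 in animal 10 and at least -0.60 in the 45 mice, and H2-T24, a T region class I gene, had its highest level there, 6.49 against at most 5.08 in the 45. Of 9 measured B cell markers 4 had a median above the mark, as did 3 of 9 dendritic and 6 of 10 T and NK cell markers, so these scores rest partly on genes at low signal. More cells of a type and more RNA per cell cannot be told apart in whole tissue.

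In a backcross of 2 strains a gene can fall into 2 groups of mice, and each member was examined for this. A gene was called so when a mixture of 2 normal distributions of equal spread was better than 1 by more than 10 units of the Bayesian information criterion (BIC), with the means at least 4 within-group SDs and 0.5 log2 units apart and at least 5 mice in each group. Of the 40 members, 1 met the rule, Tap1, and 0.906% of all 22180 genes did. Its upper group was animals 161, 24, 235, 87 and 10, at 7.47, 7.76, 8.02, 8.11 and 8.56, above the 45 others at 5.60 to 7.04. The 200 other genes that met the rule divided the mice as Tap1 did in a median of 44 of 50. Part of this is given by the small size of the upper group. Bcl2 on chromosome 1 and Pak2 on chromosome 16, named after their values were seen, did so in 48. A division near that of Tap1 was thus not particular to it, and its relation to haplotype was not tested. No member met the rule without animals 64, 84, 87 and 235, or with the means 5 SDs apart. With groups of 3 mice allowed, H2-M3 met it too. H2-T23, the nonclassical class I gene known as Qa-1, came close without meeting it: the mixture put 24 mice below and 26 above, 3.90 SDs apart, with a BIC gain of 8.44. H2-Q10, a secreted class I protein made by the liver, divided 15 against 35 at 3.69 SDs and a gain of 6.84, on the probe set used.

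The clearest division lay on a probe set that carries 2 symbols, H2-T22 and H2-T9, near-identical nonclassical class I genes of the T region. This probe set was examined after its values had been seen, so the comparisons by its sides are descriptions with no test. In 21 mice it read 2.78 to 4.45 (median 3.72) and in 29 mice 5.41 to 7.74 (median 6.88), with no mouse between 4.45 and 5.41. The BIC gain was 47.2 and the means were 6.59 SDs apart. Both sides occurred in every stretch of animal numbers: 6 of 8 mice numbered 7 to 79 were on the high side, 7 of 13 numbered 84 to 128, 10 of 16 numbered 137 to 235 and 6 of 13 numbered 253 to 301.

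There were 4 singly measured members that were ordered by that division, more than any other of the 22180 genes. H2-Eb1, a class II beta chain, ran from 3.36 to 4.69 (median 4.41) on the low side and from 4.67 to 8.06 (median 5.28) on the high side, and 3 mice lay where the ranges overlap. In 99.7% of pairs of 1 low-side and 1 high-side mouse the high-side mouse had more H2-Eb1 signal, the first rank of all genes. H2-T23 followed with 98.2% of pairs, from 5.53 to 6.82 on the low side and from 6.30 to 8.27 on the high side, medians 6.35 and 7.57. H2-Q5, listed as a transcribed pseudogene, had 96.6% of pairs, with medians of 3.69 and 4.46. H2-T10, another T region gene listed as a transcribed pseudogene, went the other way with 7.22% of pairs, from 6.0 to 7.20 (median 6.53) on the low side and from 5.35 to 6.51 (median 6.01) on the high side. A share of at least 90% was reached by 3 genes, 0.0135% of all, and a share of 10% or less by 1, 0.00451%, so that all 4 are members. The next gene in order, Gfer, had 89.0%.

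Genes of chromosome 17 were frequent among those that came next in the order, beside genes of other chromosomes. Distances to the complex were not measured. Of the first 30 genes 17 lie on chromosome 17, and of the 24 that are no members 11 do (45.8%), against 4.87% of all genes with a known chromosome. Among them, named after their values were seen, were Gfer, Supt3 and D17H6S56E-5 with 89.0%, 86.4% and 86.0% of pairs. Among the members H2-Q4 had 78.3% and Tapbp 78.2%. Each gene was also divided where its own mixture of 2 distributions puts the border, counted in the better direction. H2-T23 gave the same side as the shared probe set in 47 of 50 mice. H2-T10, turned round, gave it in 39, no more than Klf9 on chromosome 19, which is no member and was named after its values were seen. H2-Eb1 and H2-Q5 gave it in 27, since their own border set only 2 mice apart.

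**Figure D2:**
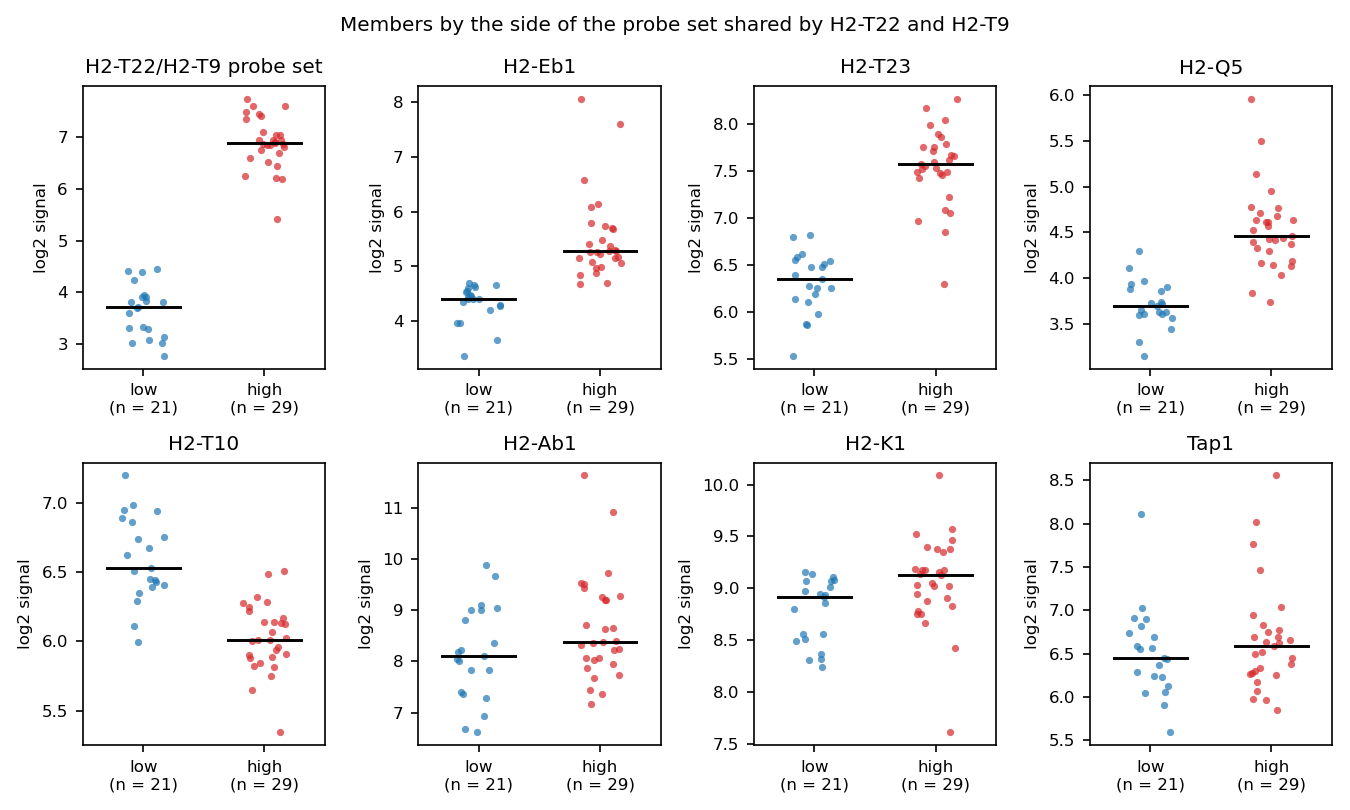
Log2 signal (vertical axis) of the probe set shared by H2-T22 and H2-T9 and of 7 members, for the 21 mice on its low side (blue) and the 29 on its high side (red); points are mice and black lines medians. H2-Eb1, H2-T23 and H2-Q5 are higher and H2-T10 is lower on the high side, whereas H2-Ab1, H2-K1 and Tap1 overlap broadly.

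The division accounted for unequal shares of the members' variance. It took in 73.0% of the variance of H2-T23, 53.3% of H2-Q5, 52.2% of H2-T10 and 47.0% of H2-Eb1, which lowered the SD of H2-T23 from 0.72 over all mice to 0.38 within sides. Tapbp followed with 21.9%, and H2-K2 with 14.5%, and the values were 12.2% for H2-K1, 6.01% for H2-Ab1, 4.32% for H2-Aa, 1.74% for B2m, 1.91% for Tap1 and 0.026% for H2-Q10. So the broad spread of H2-Q10 on the probe set used, with the largest SD of all members, ran across both sides. That probe set ran from 4.13 to 8.20 on the low side and from 4.85 to 8.20 on the high side. A second probe set of H2-Q10 had an SD of 0.51 and r = 0.025 with the one used. Genotypes of the mice were not analysed here. A different transcript level and a different match of the probes to an allele cannot be told apart in these signals.

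H2-Eb1 carried both patterns at once. The chain H2-Ab1, part of another class II molecule, differed little between the sides (medians 8.11 and 8.37). Yet within each side H2-Eb1 followed H2-Ab1, with r = 0.578 over the 21 low-side mice and 0.914 over the 29 high-side mice. Without animals 10, 64, 84, 87 and 235 these were 0.405 (n = 19) and 0.858 (n = 26). H2-T10 and H2-T23 showed opposite pooled and within-side relations. Their pooled r was -0.413 (permutation p = 0.003; rho = -0.386, permutation p = 0.0059; limma adjusted p = 0.515), whereas r was 0.596 within the low side and 0.575 within the high side. The pooled and within-side values of this pair thus differed in sign.

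**Figure D3:**
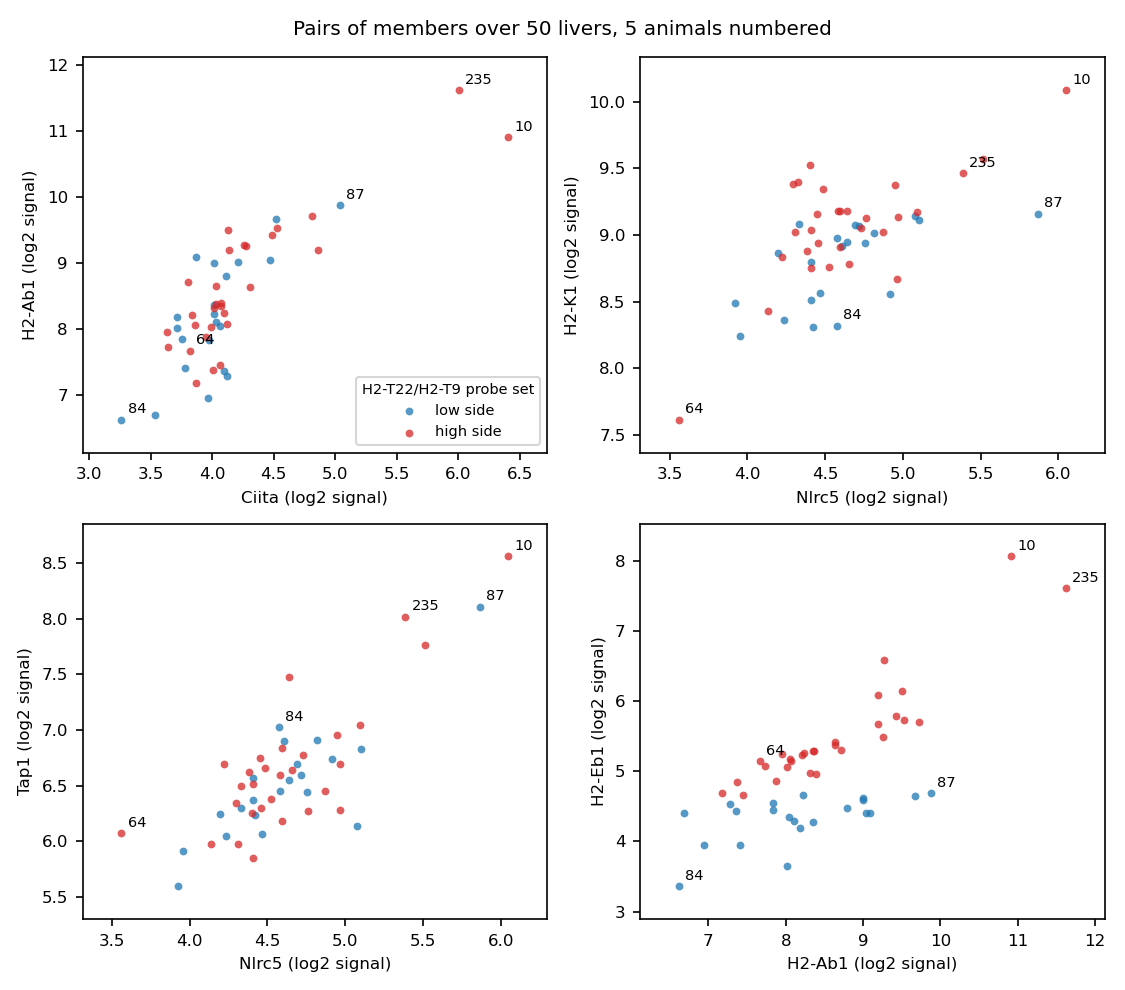
Log2 signals of 4 pairs of members over 50 livers, coloured by the side of the H2-T22 and H2-T9 probe set (blue low, red high), with animals 10, 64, 84, 87 and 235 numbered. In the lower right panel the high-side mice lie above the low-side mice at equal H2-Ab1, and in the other panels animals 10 and 235 lie at the upper end.

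The covariation of the members was tested by fitting every gene's log2 signal on a standardised level or score with limma, with Benjamini-Hochberg adjustment over all genes and a threshold of 0.05. A slope is the log2 change per SD of the level or score. Slopes, r and rho below are over 50 mice unless another n is given, and permutation p-values are two-sided with 100000 permutations, 1e-05 being the smallest they can give. With Nlrc5, the class I transactivator, 19 of 39 other members rose and none fell at the threshold, against 3.11% of all genes rising and 0.248% falling. Negative slopes at an unadjusted p under 0.05 in limma numbered 1 each with Nlrc5, Ciita, H2-Ab1 and the interferon gamma GTPase score. They numbered 2 with H2-T23 and 3 with Tap1. The median r of the 22 other members at or above the mark was 0.535, beside -0.010 for all genes there. Class I and class II members were both among the 19: 4 of 4 light chain and loading genes, H2-K1, 2 of 9 K, Q and T region genes (H2-Q4 and H2-Q5), 2 of 12 M region genes, 4 of 5 class II presenting genes and 5 of 5 class II loading genes, with Ciita. Of these class II genes H2-Ea, H2-DMb1, H2-Oa and H2-Ob had medians below the mark.

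The steepest relation to Nlrc5 relative to its error was that of the transporter subunit Tap1, with a slope of 0.47 ± 0.05 (SE; limma adjusted p = 8.29e-09). Tap1 fell into 2 groups of mice, so its pooled r with Nlrc5 is not given. Within its 45 lower mice r with Nlrc5 was 0.588 and rho 0.563 (permutation p = 2e-05 and 0.0001). H2-K1 rose by 0.26 ± 0.04 per SD (limma adjusted p = 6.47e-05; r = 0.647, permutation p = 1e-05; rho = 0.478, permutation p = 0.00052). Tap2 had r = 0.710 and rho = 0.451 (permutation p = 1e-05 and 0.0011). B2m moved with Nlrc5 by 0.09 ± 0.02 per SD (limma adjusted p = 0.00746), a small slope on a narrow range. H2-Q1, H2-Q10, H2-K2, H2-T10 and H2-T23 did not pass, and whether they differed from the members that passed was not tested. H2-T23 had r = 0.309 with Nlrc5 over all mice, and 0.502 within the low and 0.531 within the high side of the H2-T22 and H2-T9 probe set. The shared probe sets of the Q region related to Nlrc5 too: r was 0.767 for that of H2-Q6 and H2-Q8 (rho = 0.610, each permutation p = 1e-05) and 0.686 and 0.650 for the pair of H2-Q7, H2-Q8 and H2-Q9 (rho = 0.476 and 0.408; permutation p = 1e-05 for both r, 0.00046 and 0.0038 for rho).

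The number of calls fell without a few mice, for the members and for all genes. Without animal 10 alone 13 members rose with Nlrc5, against 1.56% of all genes, and without animals 10, 64, 84, 87 and 235, 4 did: H2-Aa, H2-Ab1, H2-DMa and Tap1, against 0.176% of all genes. With values replaced by ranks 5 passed, those 4 and Ciita, against 33 of all 22179 genes. At an unadjusted p under 0.05 in limma, 22 members rose with Nlrc5 in all mice, 17 in the 45 and 19 with ranks. H2-K1 kept r = 0.469 in the 45 mice, with a limma adjusted p of 0.189. Leaving out animals 64, 84, 87 and 235 but keeping animal 10, the highest mouse for both transactivators, left 17 members past the threshold. Of all 22179 genes 501 rose there.

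With Ciita, the class II transactivator, 19 of 39 members rose and none fell, against 4.57% of all genes rising and 0.329% falling. All 5 class II presenting and all 5 class II loading genes were among them. Of these H2-Ea (listed as a transcribed pseudogene), H2-Eb2, H2-DMb1, H2-Oa and H2-Ob had medians below the mark. H2-Eb2 and H2-Oa were high in animal 10 alone. H2-DMa rose by 0.59 ± 0.05 per SD (limma adjusted p = 1.66e-12; r = 0.865, permutation p = 1e-05; rho = 0.653, permutation p = 1e-05). H2-Aa followed with r = 0.828 and rho = 0.714, and H2-Ab1 with r = 0.822 and rho = 0.748 (each permutation p = 1e-05). For H2-Ab1 r without the 2 mice farthest from the median Ciita level was 0.744. In the 45 mice without animals 10, 64, 84, 87 and 235, 3 members passed, H2-Aa (r = 0.633), H2-Ab1 (r = 0.679) and H2-M2 (r = 0.665), against 0.018% of all genes. H2-Eb2, the class II gene high in animal 10, went from r = 0.494 to -0.175 there. The relation of Ciita to H2-Aa and H2-Ab1 was thus found in the 45 mice too, and that to H2-Eb2 was not.

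H2-Ab1 was used as the measure of class II presentation because Cd74, the invariant chain that guards the class II groove, shares its only probe set with the microRNA gene Mir5107. With H2-Ab1, 19 of 39 members rose and none fell, against 3.59% of all genes rising and 0.189% falling. H2-Aa, with which it forms the I-A molecule, followed it closely (slope 0.80 ± 0.03, limma adjusted p = 2.79e-26; r = 0.965, permutation p = 1e-05; rho = 0.943, permutation p = 1e-05). In the 45 mice this r was 0.947, and 6 members passed (Ciita, H2-Aa, H2-DMa, H2-Eb1, Nlrc5 and Tap1), against 0.185% of all genes. The probe set shared by Cd74 and Mir5107 read 7.51 at the lowest, 8.99 at the median and 11.75 at the highest, and it too followed H2-Ab1 (r = 0.960, permutation p = 1e-05, 1.5e-05 after adjustment over the 15 relations of shared probe sets; rho = 0.932, permutation p = 1e-05). Its r in the 45 mice was 0.928. Over H2-Aa, H2-Ab1, H2-Eb1 and H2-DMa the mean r of the 6 pairs was 0.815, and 0.665 in the 45 mice.

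The shared class I probe sets of the Q region followed both H2-K1 and H2-Ab1. There were 2 probe sets of H2-Q7, H2-Q8 and H2-Q9, the Qa-2 genes. The brighter ran from 8.18 through 9.67 to 10.83 and had r = 0.859 with H2-K1 (rho = 0.850, each permutation p = 1e-05) and r = 0.632 with H2-Ab1 (rho = 0.563, permutation p = 2e-05 and 4e-05). The dimmer ran from 3.08 through 4.49 to 6.25, with r = 0.694 and rho = 0.600 for H2-K1 (permutation p = 1e-05 and 3e-05) and r = 0.599 and rho = 0.432 for H2-Ab1 (permutation p = 1e-05 and 0.0018). The probe set of H2-Q6 and H2-Q8 had r = 0.766 with H2-K1 (rho = 0.747, each permutation p = 1e-05) and r = 0.636 with H2-Ab1 (rho = 0.525, permutation p = 1e-05 and 8e-05). The differences between these correlations were not tested. The probe set of H2-D1 and H2-Q2 had a narrow range (4.02 to 4.83) and passed with neither, with r = 0.066 for H2-K1 (permutation p = 0.65; rho = 0.028, permutation p = 0.85) and r = 0.156 for H2-Ab1 (permutation p = 0.28; rho = 0.023, permutation p = 0.87). The relations of the shared probe sets were added after the data had been seen.

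With Tap1, the measure of class I peptide transport, 19 of 39 members rose and none fell, against 6.1% of all genes rising and 1.03% falling. H2-M3 was the closest, with a slope of 0.40 ± 0.04 (limma adjusted p = 4.28e-10) and r = 0.654 within the 45 mice of Tap1's lower group (permutation p = 1e-05; rho = 0.626, permutation p = 1e-05). Tap2 (r = 0.634) and Tapbp (r = 0.516) followed within those mice, with permutation p = 3e-05 and 0.00027 and rho of 0.502 and 0.462 (permutation p = 0.00053 and 0.0013). Tap1, Tap2 and Tapbp work together in 1 loading complex. Without animal 10, 12 members passed, against 5.05% of all genes. Without animals 10, 64, 84, 87 and 235, 11 passed, against 0.929% of all genes. With ranks 11 passed as well, against 436 of all 22179 genes rising. H2-T24, which is not among the 19, was among the 11 in both. Differences in count between the fits on Tap1, Nlrc5 and Ciita were not tested. Mean r over the 15 pairs of B2m, Tap1, Tap2, Tapbp, H2-K1 and H2-Q4, with the pairs of Tap1 pooled over its 2 groups, was 0.634 in all 50 mice. It was 0.508 in the 45 mice without animals 10, 64, 84, 87 and 235.

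With the level of the nonclassical gene H2-T23, 5 of 39 members rose (H2-Eb1, H2-Q5, H2-K1, Tapbp and H2-Q4) and none fell. Of all 22179 genes 9 rose, 0.0406%, the 5 members among them, and 0.018% fell. The fit was added after the data had been seen. The H2-T22 and H2-T9 division took in 73.0% of the variance of H2-T23, so the calls of H2-Eb1 and H2-Q5 are no separate evidence of that division. At an unadjusted p under 0.05 in limma 18 members rose with H2-T23. When the adjustment ran over all fits together 8 rose, against 52 of all 22179 genes. H2-Q5 had a slope of 0.44 ± 0.05 and H2-Eb1 one of 0.66 ± 0.08 (limma adjusted p = 6.15e-08 and 2.43e-07). Within the sides of the H2-T22 and H2-T9 probe set, r of H2-T23 with H2-Eb1 was 0.214 on the low and 0.553 on the high side, and with H2-K1 it was 0.701 and 0.620. The relation to H2-K1 was therefore present inside both sides, whereas that to H2-Eb1 on the low side was weak. Tapbp and H2-Q4 lost their calls without animal 10, 24 or 89, each of which left 3 members. Of all genes 0.0225%, 0.018% and 0.0225% rose in these fits. In a fit with the interferon gamma GTPase score as a covariate, chosen after the data had been seen, H2-Eb1 and H2-Q5 rose and H2-T10 fell. Of all 22179 genes 4 rose and 4 fell there.

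With H2-Q10, the secreted liver class I gene, limma called none of 39 members and 0% of all genes, and 1 member reached an unadjusted p under 0.05. The second single-symbol probe set of H2-Q10 did not follow the one used (r = 0.025 between them, over 50 mice), and its SD was 0.51 against 1.11 for the one used. The second probe sets of Tapbp, H2-Q4 and H2-Q5 had r of 0.215, 0.280 and 0.403 with the ones used. With H2-Q1, 5 of 39 members rose (H2-K2, H2-Ke6, H2-T10, H2-M11 and B2m), beside 10% of all genes, a share close to theirs, and none fell, beside 13.7% of all genes; at an unadjusted p under 0.05 limma gave 2 with a slope below 0. H2-K2, listed as a transcribed pseudogene, rose by 0.27 ± 0.04 per SD (limma adjusted p = 1.14e-06; r = 0.699, permutation p = 1e-05; rho = 0.673, permutation p = 1e-05), and it was the member that still passed in the 45 mice.

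The list of interferon gamma GTPases, 8 measured genes of the Gbp and Irg families that interferon gamma induces in many cells, moved with most of the loading route. With its score 17 of 40 members rose and none fell, against 2% of all genes rising and 0.104% falling. Tap1 rose by 0.48 ± 0.05 and Tap2 by 0.24 ± 0.03 per SD (limma adjusted p = 2.95e-10 and 2.13e-09), and Nlrc5 had r = 0.781 (permutation p = 1e-05; rho = 0.632, permutation p = 1e-05). Without animal 10, the highest mouse in this score at 2.58, 11 members passed, against 0.821% of all genes. In the 45 mice 9 passed (H2-Aa, H2-Ab1, H2-DMa, H2-K1, H2-M3, Nlrc5, Tap1, Tap2 and Tapbp), against 0.789% of all genes, and r was 0.747 for Tap1 and 0.731 for Tap2. With the broader interferon response list, which holds genes known best from the type I response such as Ifit1 and Isg15, 2 of 40 rose, Tap1 and Tap2, and none fell, against 1.41% of all genes rising and 0.253% falling. Whether the members related more to one list than to the other was not tested.

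With the Kupffer cell and macrophage score 19 of 40 members rose, against 6.38% of all genes, and H2-Ke6 fell, against 2.82%. H2-M3 led with a slope of 0.36 ± 0.05 (limma adjusted p = 2.55e-08; r = 0.743, permutation p = 1e-05; rho = 0.577, permutation p = 2e-05). H2-Aa and H2-Ab1 had r of 0.709 and 0.681 with rho of 0.470 and 0.473 (permutation p = 1e-05 for both r, 0.00085 and 0.0008 for rho). Without animal 235, 13 members rose, against 2.44% of all genes. In the 45 mice 7 passed, H2-K1, H2-M3, H2-T24, Nlrc5, Tap1, Tap2 and Tapbp, against 2.6% of all genes, none of them a class II chain. H2-Aa and H2-Ab1 had limma adjusted p of 0.0527 and 0.0537 there. H2-K1 had r = 0.602 in these mice.

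The counts for lymphoid and dendritic cells changed with single mice. With the B cell score 8 of 40 members rose, against 1.16% of all genes (0.0722% fell), all of them class II genes or Ciita: H2-Aa, H2-Eb2, H2-DMa, H2-DMb1, H2-DMb2, H2-Oa, H2-Ob and Ciita. Without animal 10 only H2-DMb2 passed, against 0.0722% of all genes, and its r was 0.761 over 50 mice (permutation p = 1e-05; rho = 0.695, permutation p = 1e-05) and 0.662 in the 45. With the dendritic cell score 12 rose, against 2.01% of all genes (1.22% fell), and without animal 10 only H2-Aa did, against 0.0947%. With the T and NK cell score 14 rose, against 3.06% of all genes (0.293% fell), 8 did without animal 10, against 2.29%, and 20 did without animal 87, against 3.29%. In the 45 mice H2-DMb2 passed with the B cell score, H2-DMa with the T and NK cell score and, by limma, 0 members with the dendritic cell score, where 7 had an unadjusted p under 0.05. Of all genes 42, 9 and 10 rose in these fits. Without animal 87, 12 members rose with the B cell score, against 2.06% of all genes.

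With the hepatocyte score 6 of 40 members rose (B2m, H2-K2, H2-Ke6, H2-M10.6, H2-Q1 and H2-T10), against 13% of all genes, and H2-T24 fell, against 15.8%. H2-Q1 rose by 0.40 ± 0.07 per SD (limma adjusted p = 9.82e-06; r = 0.616, permutation p = 9e-05; rho = 0.324, permutation p = 0.022). The count of 6 is close to the share of all genes, and the count of 1 is below it, a difference that was not tested. Without animal 64, whose hepatocyte score was -3.85, 2 rose (H2-Ke6 and H2-Q1), against 6.26% of all genes, and 11 fell, against 9.28%, and in the 45 mice limma called 0, with 4 at an unadjusted p under 0.05. With the endothelial, stellate cell and acute phase scores limma called none of 40 members, while 7, 9 and 3 had an unadjusted p under 0.05. The background there was 1.91%, 2.17% and 1.51% of all genes rising and 0.686%, 1.75% and 1.03% falling. With animal number, the only number the labels give for a mouse, limma called none of 40, 8 had an unadjusted p under 0.05, and the smallest limma adjusted p was 0.086, for H2-K2; 1.28% of all genes rose and 2.24% fell with it.

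**Figure D4:**
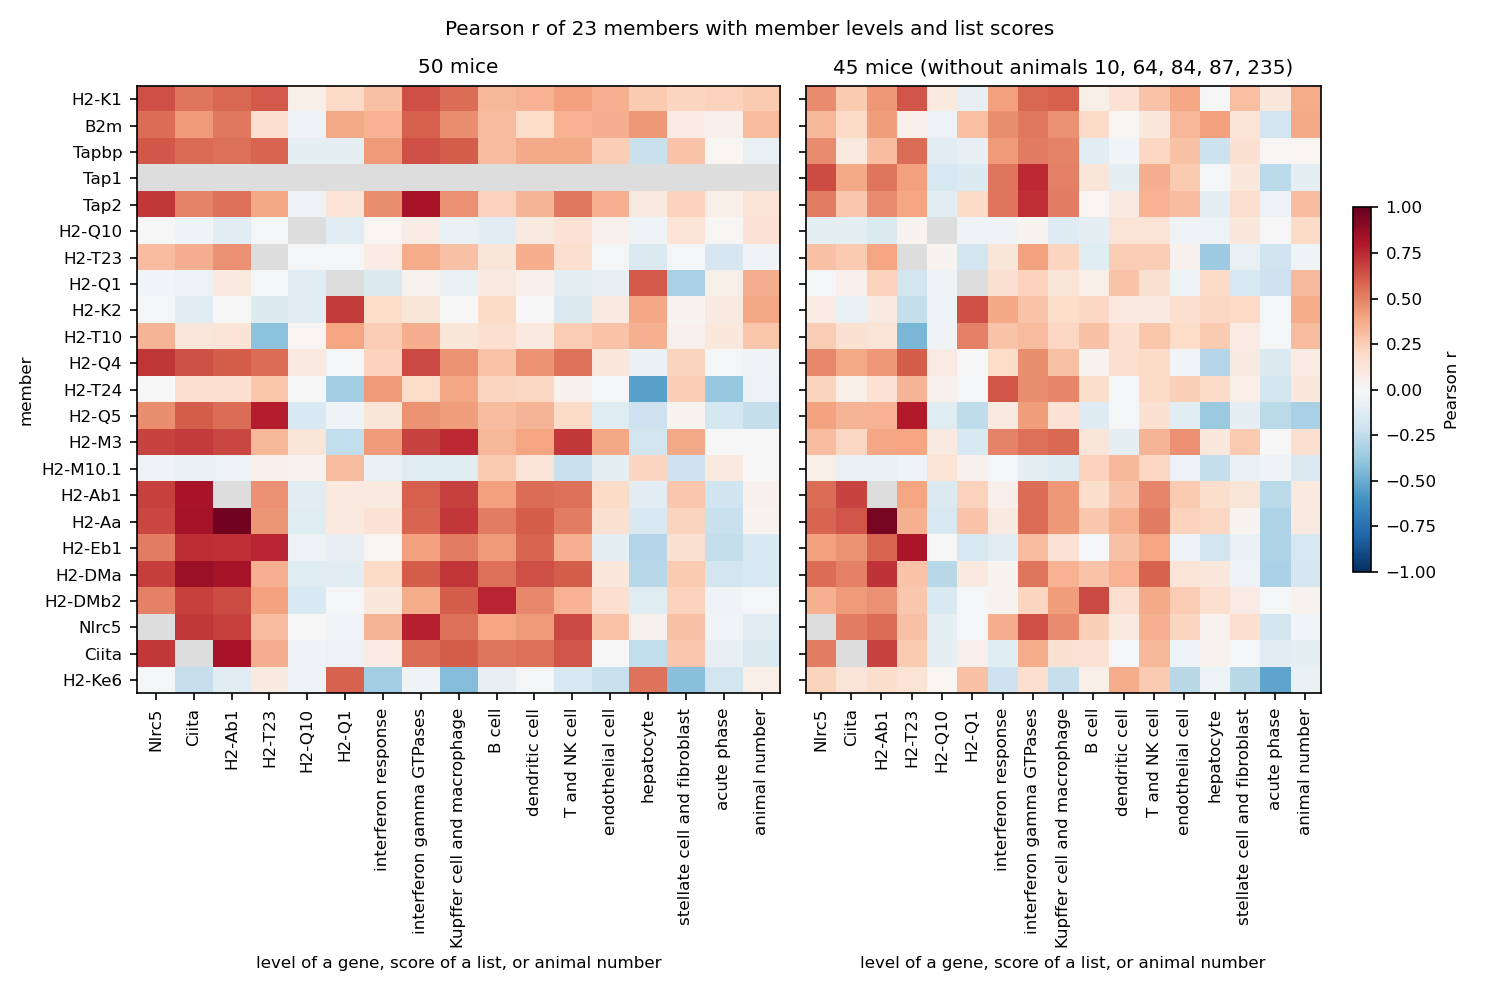
Pearson r (colour, from -1 in blue to 1 in red) of the 23 members at or above the median level (rows) with member levels, list scores and animal number (columns), in 50 mice on the left and in 45 on the right; grey marks a gene with itself and, on the left, Tap1, which has no pooled r. The class II and loading rows are red under Nlrc5, Ciita and H2-Ab1 on the left and paler on the right, H2-Q10 is pale throughout, and H2-Eb1 and H2-Q5 stay red under H2-T23.

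**Figure D5:**
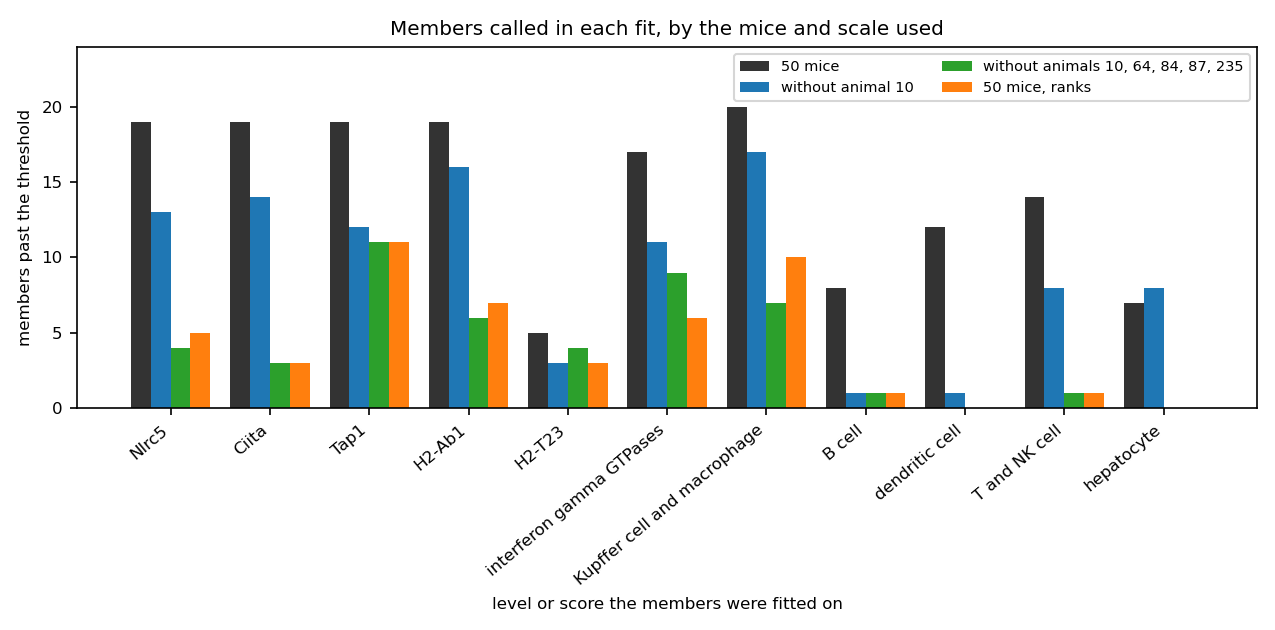
Number of members past the threshold (vertical axis, from 0) in 11 fits, for all 50 mice, without animal 10, without animals 10, 64, 84, 87 and 235, and with ranks in place of log2 values. The fits on Nlrc5 and Ciita go from 19 to 4 and 3 without the 5 mice, and the fit on Tap1 from 19 to 11. The share of all genes rising goes from 3.11% to 0.176%, from 4.57% to 0.018% and from 6.1% to 0.929%.

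Other genes of the pathway were taken from fixed lists. Of 20 antigen processing genes, 8 rose with Nlrc5 (3.11% of all genes did) and none fell: the immunoproteasome subunits Psmb8, Psmb9 and Psmb10, the proteasome activator Psme1, the peptide trimmer Erap1, the tapasin relative Tapbpl, the class II protease Ctss and the thiol reductase Ifi30. Psmb9, which lies beside Tap1, rose by 0.37 ± 0.05 per SD (limma adjusted p = 2.28e-07; r = 0.755, permutation p = 1e-05; rho = 0.602, permutation p = 2e-05). With Ciita 7 rose (4.57% of all genes) and with H2-Ab1 7 rose (3.59%), in both cases Ctsb, Ctss, Ifi30, Psmb8, Psmb9, Psmb10 and Psme1. In the 45 mice Psmb8, Psmb9 and Ctss still passed with Nlrc5 (limma adjusted p = 0.0343, 0.031 and 0.03). With H2-Ab1 only Psmb9 did (limma adjusted p = 0.000993). With Ciita none of the 7 did, and their r there ran from 0.130 for Psme1 to 0.398 for Psmb10. Of 13 measured MHC transcription factors, Irf1 and Irf8 rose with Nlrc5, and Spi1 joined them with Ciita and with H2-Ab1, beside the same shares of all genes. None of these calls was kept in the 45 mice or with ranks. In the 45 mice limma adjusted p with Nlrc5 was 0.73 for Irf1 and 0.797 for Irf8. With H2-Ab1 it was 0.424, 0.765 and 0.413 for Irf1, Irf8 and Spi1. With Ciita their r there was 0.237, -0.0019 and 0.069. Irf1 and Irf8 are interferon regulatory factors and Spi1 is a factor of myeloid and B cells.

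The 5 genes outside the set most like an index gene, by absolute r, included guanylate-binding proteins (Gbp genes) for Nlrc5, Tap1 and H2-Ab1 and not for Ciita. For Nlrc5 they were Gbp4 (r = 0.791), Gbp5 (0.786), Gm1966, Gm12250 and Gbp7 (0.763). For Tap1 over its 45 lower mice they were Gbp7 (0.783), Irgm2 (0.753), Parp14, Samhd1 and Gbp9 (0.705). For H2-Ab1 they were Gbp2b (0.837), Gbp8 (0.804), Psmb9, Itgal and Myo1f (0.747). Those of Ciita differed: Cd52, 5430427O19Rik, Ccl8, Calhm6 and Plcb2 had r from 0.796 to 0.826, but rho of 0.158 to 0.432, and r of 0.062 to 0.395 in the 45 mice. The likeness to Ciita was thus weaker in the 45 mice.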

How the data were processed

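Liver total RNA of 50 mice (100 ng, WT Plus kit, per the labels' protocols) was hybridised to 1 array each. The authors deposited log2 signals, and the submitters' processing notes name RMA and Affymetrix Expression Console 1.4.1. RMA subtracts background, makes all arrays share 1 distribution and summarises probes, so overall differences in RNA are removed. The genome build is not given in the sources used here. Array medians ran from 3.27 to 3.34. For arrays the number of mice and the signal over background limit the precision.

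Of 41345 probe sets, 23521 carry 1 gene symbol, 1814 several and 16010 none. Where a gene had several single-symbol probe sets, the highest median decided. RefSeq (GRCm38.p6) gave chromosomes and gene types. The members and lists were chosen with earlier results of these data known. Every gene was fitted with limma 3.58.1 (R 4.3.3; lmFit, eBayes with trend) on a standardised level or list score, in 18 fits, with Benjamini-Hochberg adjustment over all genes. A list's own genes, or the level's own gene, were left out of its fit. Mixtures, correlations and permutations used numpy 2.4.6 and scipy 1.17.1. Animals 64, 84, 87 and 235 stand apart: their median correlation with the other arrays, over genes at or above the median level, is below the lower quartile by over 3 interquartile ranges. The alternatives were other probe set rules, centred arrays, ranks, an array component or the stretch of animal numbers as a covariate, a level filter, a joint adjustment and mice left out. The fits on H2-Ab1, H2-T23, H2-Q10 and H2-Q1, the fits without animal 10, the leave-one-out fits and the shared probe sets were added after the data had been seen. In data simulated for the Nlrc5 fit over 22179 genes, limma recovered 7%, 67% and 97% of genes changed by 0.1, 0.2 and 0.4 log2 per SD. Of the calls 6.67%, 7.59% and 3% were unchanged genes. The 200 changed genes were all at or above the median level. Noise was normal and independent between genes, so correlated genes and mice that stand apart were not simulated. The mixture rule called 0%, 6%, 58.5% and 100% of 200 genes simulated with means 0, 3, 4 and 6 SDs apart. Any measured member may be named. Other genes named are those of the antigen processing and transcription factor lists, the 5 with the largest absolute r in each fit on an index gene, and genes said to be chosen after their values were seen.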

Additional observations from a re-analysis of the deposited data

How the results depend on the processing

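Of 166 relations of a member past the threshold, 166 kept direction and call with arrays centred on their medians, 162 with the stretch of animal numbers as covariate, 160 with the mean of all probe sets, 160 with 1 adjustment over all fits and 152 with the first array component as covariate. With ranks 49 did, and without animals 10, 64, 84, 87 and 235, 48 did. The cause was not tested. The stretch covariate does not give r inside a stretch. From low to high numbers the stretches held 8, 13, 16 and 13 mice. In that order r with Nlrc5 was 0.95, 0.60, 0.66 and -0.23 for H2-K1, and 0.84, 0.77, 0.84 and 0.15 for H2-Ab1. With Ciita it was 0.79, 0.60, 0.62 and -0.28 for H2-K1, and 0.94, 0.84, 0.89 and 0.58 for H2-Ab1. These differences were not tested.

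The number of members called in a fit moved by over 1.5 times as follows. With ranks it was 5 for Nlrc5, 3 for Ciita, 11 for Tap1, 7 for H2-Ab1, 3 for H2-T23, 2 for H2-Q1, 6 for the interferon gamma GTPases, 10 for Kupffer cells and macrophages, 1 for B cells, 1 for T and NK cells, and 0 for dendritic cells and hepatocytes. In the same order 33, 5, 436, 69, 3, 473, 150, 565, 3, 22, 0 and 71 of all genes rose. Without animals 10, 64, 84, 87 and 235 the members called numbered 4 for Nlrc5, 3 for Ciita, 11 for Tap1, 6 for H2-Ab1, 1 for H2-Q1, 9 for the GTPases, 7 for Kupffer cells, 1 each for B cells, T and NK cells, endothelial cells and the acute phase, and 0 for dendritic cells and hepatocytes. In the same order up to endothelial cells 39, 4, 206, 41, 24, 175, 577, 42, 9 and 737 of all genes rose. For the acute phase, where the member fell, 413 of all genes fell. For dendritic cells and hepatocytes 10 rose in each. Without animals 64, 84, 87 and 235 the members called numbered 13 for Kupffer cells, 4 for the interferon response and 1 each for H2-Q1, hepatocytes and the acute phase. Of all genes 783 rose for Kupffer cells, 236 for the interferon response and 53 for H2-Q1. For hepatocytes and the acute phase, where the member fell, 30 and 397 of all genes fell. With the first array component the members called numbered 1 each for H2-Q1, the interferon response, hepatocytes and the acute phase. Of all genes 37, 150 and 587 rose in the fits on H2-Q1, the interferon response and hepatocytes. For the acute phase, where the member fell, 488 of all genes fell. Adjusted over all fits together the members called numbered 9 for H2-T23, 2 for H2-Q1, 5 for the interferon response and 1 for stellate cells. For H2-T23, with 8 members rising and 1 falling, 52 of all genes rose and 62 fell. For H2-Q1 1546 of all genes rose and for the interferon response 528. For stellate cells, where the member fell, 484 fell. With centred arrays the members called numbered 5 for the interferon response, where 449 of all genes rose. Over genes at or above the median level the members called numbered 4 for the interferon response, 4 for B cells, 2 for stellate cells and 1 for animal number. Of all genes at that level 377, 209, 669 and 365 rose in these fits. For stellate cells 1 of the 2 members fell, and 580 of all genes fell. With stretches of animal numbers 1 member fell for stellate cells, where 622 of all genes fell. With the GTPase score as covariate the members called numbered 3 for H2-T23, where 4 of all genes rose and 4 fell. Members in 2 groups of mice numbered 0 without animals 64, 84, 87 and 235, 0 at 5 SDs and 2 with groups of 3 mice. Of all 22180 genes 88, 71 and 907 did so.

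Leaving out each mouse in turn gave 13 to 20 members for Nlrc5, 14 to 20 for Ciita, 12 to 22 for Tap1, 16 to 20 for H2-Ab1, 3 to 5 for H2-T23, 11 to 21 for the GTPases, 13 to 20 for Kupffer cells, 1 to 12 for B cells, 1 to 16 for dendritic cells, 8 to 20 for T and NK cells and 6 to 13 for hepatocytes. The fewest came without animal 235 for Kupffer cells, without animal 229 for hepatocytes and without animal 10 for the others, where for H2-T23 animals 24 and 89 gave as few. Without animal 10 the share of all genes rising was 1.56% for Nlrc5, 3.52% for Ciita, 5.05% for Tap1, 2.71% for H2-Ab1 and 0.0225% for H2-T23. For Kupffer cells without animal 235 that share was 2.44%.

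Slopes that turned were H2-Eb2 on Ciita (-0.032), H2-Ea (-0.021) and H2-Oa (-0.0038) on Tap1, Ciita (-0.00492), H2-M2 (-0.016) and H2-Oa (-0.016) on the dendritic cell score, and H2-Ke6 (-0.011) and H2-T24 (0.069) on the hepatocyte score, all without animals 10, 64, 84, 87 and 235. H2-T24 on the hepatocyte score was 0.026 without animals 64, 84, 87 and 235, H2-Ke6 on it was -0.10 with the first array component, and H2-M2 on the dendritic cell score was -0.559 ranks per SD.

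The planned fit on Cd74 was not run, since its only probe set is shared with Mir5107. No paired analysis was possible because the mice form 1 group. For members below the median level and for those on shared probe sets, the array signal limits what can be said.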
